A study of Mus musculus with 12 samples.

Results

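Alveolar type II (AT2) cells taken from the metastatic niche of lungs seeded with CT26 tumour cells were compared here with AT2 cells from the niche of lungs seeded with 4T1 tumour cells, by the open chromatin regions called in each. The comparison used the 6 niche libraries, 3 per tumour model, of the 12 libraries in the series, chosen by their labels. The other 6 libraries, 3 CT26 distal and 3 4T1 distal, hold AT2 cells from lung away from the tumour cells. Their values are set beside niche differences, and they also enter the scaling and the estimate of spread in the test of gene loci. All mice were BALB/c, 6 to 8 weeks old. They received 4T1 or CT26 cells carrying a labelling construct through the tail vein, and lungs were taken at day 7. Each library was made from 50000 sorted AT2 cells pooled from 5 lungs, so a value describes a pool and not a mouse. 4T1 is a mouse mammary carcinoma line and CT26 a mouse colon carcinoma line, both of BALB/c origin and each used here as 1 line. No library from an uninjected lung was used here, and the labels give no library batch, so the tumour line and the handling of its libraries cannot be told apart.

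AT2 cells line the alveoli, make and secrete pulmonary surfactant, present antigen through MHC class II, and can divide and turn into the flat AT1 cells that form the gas exchange surface. The assay was ATAC-seq: a transposase, Tn5, inserts adapters where DNA is accessible, and stretches with more insertions than background are called as peaks. Peaks mark promoters and enhancers that factors can reach, and a peak at a gene does not by itself mean that the gene is transcribed. Some of the genes described below are known to be switched on by interferon, which acts through STAT and IRF factors, or by cytokine signals that act through NF-kB.

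The locus of Sftpc, which encodes surfactant protein C, held 5424, 5238 and 5324 bp under peaks in the CT26 niche libraries and 6880, 7173 and 5281 bp in the 4T1 niche libraries. Here and below a locus is the gene body with 10 kb on each side, and its value is the length under called peaks in base pairs (bp). All 19 loci of a list of surfactant and lamellar body genes held a peak in the niche libraries. Of the markers of other cells, some had no peak in any niche library: Adgre1, Marco, Siglecf and C1qa for macrophages, S100a8, S100a9 and Retnlg for neutrophils, Cd3d, Cd8a and Ms4a1 for lymphocytes, Dcn and Lum for fibroblasts, and Krt5 for basal cells. Most other members of these lists held peaks: 11 of 15 macrophage, 7 of 11 neutrophil, 8 of 15 lymphoid, 11 of 12 endothelial and 10 of 13 fibroblast loci held enough to be tested. Pecam1, an endothelial gene, held 3059, 3060 and 1762 bp in the CT26 niche and 6667, 4466 and 5284 bp in the 4T1 niche. Peaks at these loci were therefore present beside those of AT2 genes, and the share of other cells was not tested. Ptprc, which encodes the leukocyte antigen CD45, held 685, 245 and 0 bp in the CT26 niche libraries and none in the 4T1 niche libraries. A bulk library cannot separate a change in the share of cells of a type from a change of chromatin within each cell.

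The 4T1 niche lists were longer. The CT26 niche libraries held 55529, 51430 and 51005 peaks and the 4T1 niche libraries 66911, 63722 and 65485, so the groups did not overlap. The means were 52655 ± 2498 against 65373 ± 1597 peaks (SD, n = 3), which is 19.5% fewer in CT26 (two-sided exact permutation test, p = 0.1, the smallest that 3 against 3 can give). Peaks covered 40.4 ± 3.69 Mb in CT26 and 50.9 ± 1.60 Mb in 4T1 (SD, n = 3), 20.6% less in CT26. The median peak length, 669 ± 29.5 against 666 ± 28.5 bp, and the median fold enrichment over background, 4.49 ± 0.16 against 4.43 ± 0.04 (SD, n = 3), differed by less than the spread between libraries. Distal libraries had the same order, with 46808 ± 4206 peaks in CT26 and 57404 ± 976 in 4T1 (SD, n = 3). Read depth is unknown, because the files hold peaks and no counts, and its part in the longer lists was not tested.

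**Figure D1:**
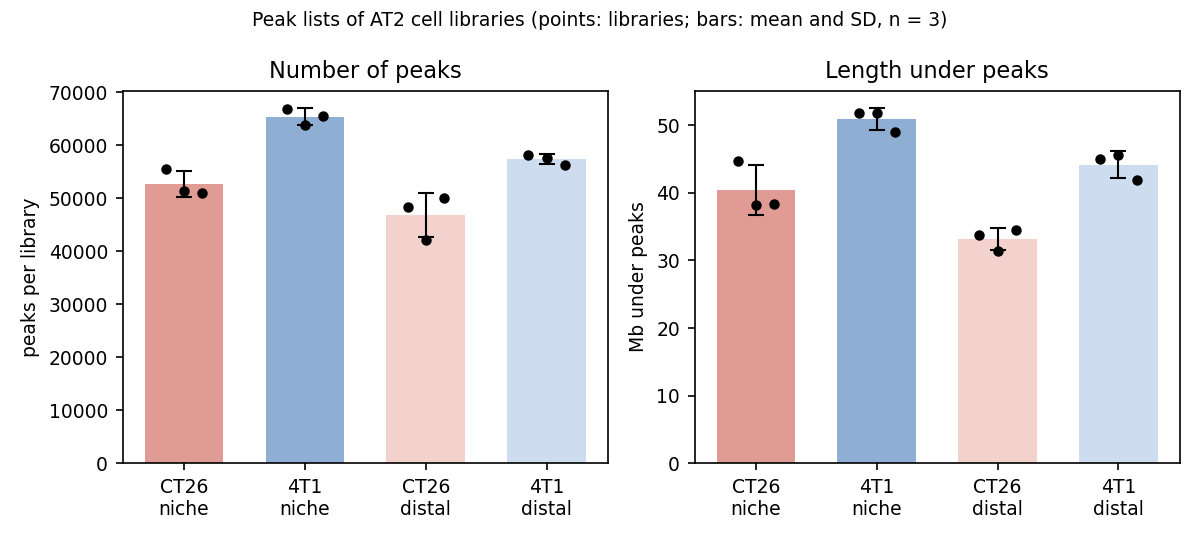
Peaks per library (left) and Mb under peaks (right) in the 4 groups; points are libraries, bars the mean and whiskers the SD of 3 libraries. The 4T1 niche libraries sit between 63722 and 66911 peaks, above the 51005 to 55529 peaks of the CT26 niche libraries, and the distal groups have the same order.

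Most open regions were shared, and those held by every library of one model and none of the other lay mostly on the 4T1 side. Merging the 6 niche lists gave 79097 regions, of which 42260 (53.4%) held a peak in all 6 libraries. A peak in all 3 4T1 niche libraries and in no CT26 niche library was found in 3190 regions (4.03% of all regions), and the opposite pattern in 57 (0.0721%). When each niche library was cut to its 51005 most significant peaks, the counts were 932 on the 4T1 side and 692 on the CT26 side. The lowest −log10 q kept was then 2.19, 1.27 and 1.01 in the CT26 niche libraries and 3.55, 3.15 and 3.00 in the 4T1 niche libraries. Equal numbers of peaks therefore meant a stricter threshold in 4T1, here and wherever 51005 peaks are kept below. The excess on the 4T1 side moved with this cut, which changed list length and threshold together.

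The regions found only in the 4T1 niche were shorter, weaker and less often at gene starts than regions held by all 6 libraries. Their median width was 520 bp, against 1046 bp for regions held by all 6 libraries. Only 3.97% lay within 1 kb of a gene start, against 28.0% of the regions held by all 6, and 59.4% lay within gene bodies. Ranked by the −log10 p of the authors' peak caller within each library's own list, they had a median percentile of 20.5, against 62.6 for the shared regions, and none ranked above 75.0. In distal AT2 cells 1202 of them (37.7%) had no peak in any library, 1648 (51.7%) had a peak in more 4T1 than CT26 distal libraries, and 117 in more CT26 than 4T1. The full pattern, all 3 4T1 distal libraries and no CT26 distal library, was found in 256 (8.03%), and its opposite in 0. Regions held by 3 of the 6 niche libraries in a mix of both models were also short and weak. Their median width was 470 bp and their median percentile 15.2, and 5.61% lay within 1 kb of a gene start. Of these mixed regions 53.9% had more 4T1 distal libraries and 6.22% the full pattern, near the shares above. No distal peak was found at 22.6% of them, against 37.7%, and 9.77% had more CT26 distal libraries, against 3.67%. Over all regions 28.1% had more 4T1 distal libraries. Of the 57 regions found only in the CT26 niche, 14 had no distal peak, 19 were held by more 4T1 distal libraries and 17 by more CT26 distal libraries.

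**Figure D2:**
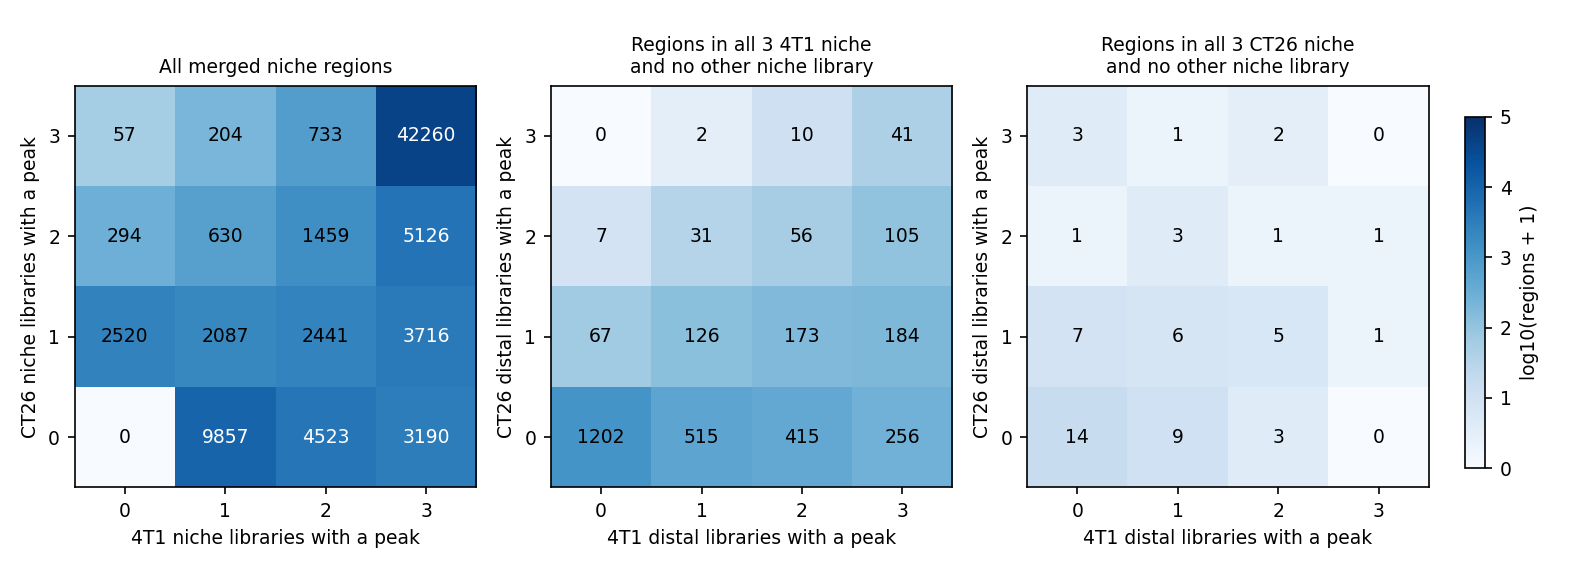
Number of merged regions by how many CT26 (vertical) and 4T1 (horizontal) libraries hold a peak there, for all 79097 niche regions by their niche calls (left), and by their distal calls for the 3190 regions found only in the 4T1 niche (middle) and the 57 found only in the CT26 niche (right); colour is log10 of the number plus 1. The corner with 3 4T1 and no CT26 libraries holds 3190 regions on the left and 256 in the middle panel, where the opposite corner holds 0.

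The highest ranking regions of each kind lay in or near named genes. Among regions with no distal peak, the top of the 4T1 side was chr17:34150083-34150316 within H2-DMb2, a gene of the MHC class II peptide loading machinery. It held 219, 223 and 192 bp of peak in the 4T1 niche libraries and ranked at percentile 74.0 of their lists. It was followed by regions in Kdm4a, which encodes a histone demethylase (chr4:118138926-118139241), in M1ap (chr6:82967060-82967310), 1180 bp from Lgals1, the galectin 1 gene (chr15:78931646-78931894), and in Abca1, the cholesterol exporter gene (chr4:53117572-53117889). Regions with the same pattern in distal cells were led by 1 within Mbnl1, a splicing regulator gene (chr3:60597040-60597436), and 1 that lay 2546 bp from the tropomyosin gene Tpm4 (chr8:72132495-72132741).

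Among regions with no distal peak, the CT26 side was led by a region at the start of Ppp1r10, which encodes a regulatory partner of protein phosphatase 1 (chr17:35918781-35919206). It held 423, 267 and 198 bp in the CT26 niche libraries and no peak in any of the other 9. Regions with the CT26 pattern in both niche and distal cells numbered 3. They lay in Nphp4, a gene of the ciliary transition zone (chr4:152484031-152484742), near Gm39469 (chr9:124256380-124256800) and in A530032D15Rik (chr1:85105337-85106302). Coordinates are GRCm38 throughout.

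At promoters the same order held on a smaller scale. Of 21045 promoter windows, 250 bases before to 50 after a RefSeq start, 61 windows of 57 genes held a peak in all 3 4T1 niche libraries and no CT26 niche library (0.29%). The opposite was true of 6 (0.0285%), the promoters of Mpped2, Prtg, Plscr5, Ppp1r10, Ebp and Gjb1. Among the 57 genes, and picked from them after their values were seen, were Casp4 (the caspase that senses bacterial lipopolysaccharide in the cytosol), Ifi203 (an interferon-inducible member of the Ifi200 DNA sensor family), Serpina3n (an acute phase protease inhibitor), Slfn2 (an interferon-inducible schlafen), Camp (the antimicrobial peptide cathelicidin), Timp1 (an inhibitor of metalloproteases), Tcf21 and Hoxa5. Of the 61 windows, 25 had no peak in any distal library. The locus as a whole passed the test described below, as longer under peaks in 4T1, for 17 of the 57 genes, against 238 of the 17274 genes with a window; the same peaks enter both measures, so one does not support the other.

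The sequences of 6 such promoters follow, 5 open in the 4T1 niche and Prtg open in the CT26 niche, so that the letters behind these calls can be read. They are RefSeq sequence of GRCm38.p6, written 5′ to 3′ on the strand of the gene, and capitals mark the motif matches named after them. Casp4 is chr9:5308599-5308848 on the plus strand, Serpina3n chr12:104406458-104406645 plus, Slfn2 chr11:83064862-83065111 plus, Camp chr9:109849457-109849706 minus and Prtg chr9:72807024-72807273 plus. Each lies before the start of its gene and outside gene bodies. For Ifi203 only 30 bases around a match are given, chr1:173942508-173942537 minus.
Casp4: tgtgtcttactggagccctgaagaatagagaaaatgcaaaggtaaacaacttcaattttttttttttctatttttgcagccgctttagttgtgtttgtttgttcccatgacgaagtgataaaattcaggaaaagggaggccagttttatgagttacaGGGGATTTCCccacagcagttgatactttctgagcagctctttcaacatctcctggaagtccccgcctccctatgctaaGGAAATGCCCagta
Serpina3n: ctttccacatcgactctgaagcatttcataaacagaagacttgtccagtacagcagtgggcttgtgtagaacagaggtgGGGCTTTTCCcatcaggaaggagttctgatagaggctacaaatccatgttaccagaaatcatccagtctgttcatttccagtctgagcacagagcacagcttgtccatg
Slfn2: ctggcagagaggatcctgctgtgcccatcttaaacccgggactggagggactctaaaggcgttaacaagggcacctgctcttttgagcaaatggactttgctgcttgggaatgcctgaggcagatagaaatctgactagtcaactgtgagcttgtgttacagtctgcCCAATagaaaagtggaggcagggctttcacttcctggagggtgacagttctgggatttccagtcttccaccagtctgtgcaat
Camp: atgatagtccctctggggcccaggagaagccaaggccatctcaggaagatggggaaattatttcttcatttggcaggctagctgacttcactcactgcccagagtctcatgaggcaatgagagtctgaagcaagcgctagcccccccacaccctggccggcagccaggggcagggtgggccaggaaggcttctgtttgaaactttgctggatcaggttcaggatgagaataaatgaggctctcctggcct
Ifi203: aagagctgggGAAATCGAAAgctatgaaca
Prtg: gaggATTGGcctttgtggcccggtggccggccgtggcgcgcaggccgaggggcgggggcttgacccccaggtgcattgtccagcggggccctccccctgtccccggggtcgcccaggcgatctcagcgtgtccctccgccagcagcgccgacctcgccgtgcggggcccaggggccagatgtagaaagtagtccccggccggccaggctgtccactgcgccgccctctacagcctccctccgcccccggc

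A set of 6 motifs was searched in the 250 bases before each start, on both strands, with N for any base; they may overlap, and a match is a description and not a bound site. The NF-kB-like motif, whose letters are the capitals in Casp4 and Serpina3n, matched the Casp4 promoter at 93 and 14 bases before the start and the Serpina3n promoter at 171 bases before it. The interferon-stimulated response element matched Ifi203, where the capitals show it, at 35 bases before the start used here. CCAAT matched Slfn2 and Prtg, and no motif matched Camp. Over all 61 windows open only in the 4T1 niche, TGANTCA, the site of AP-1 factors, was present in 11, against 6.17% of all windows and 4.14% of those open in all 6 niche libraries. The NF-kB-like motif was in 3 of the 61 (4.92%), against 1.44% of all windows. These 3 were 2 overlapping Casp4 windows that hold the same matches and the Serpina3n window, so they stand for the promoters printed above. The interferon element was in 3 (4.92%) against 2.98%, and the STAT-like TTCNNNGAA in 3 (4.92%) against 6.64%. CCAAT was in 20 (32.8%) against 35.6%. The 61 windows held a median of 5 CpG dinucleotides, against 13 over all windows, 22 over those open in all 6 niche libraries and 3 over those open in no niche library, and AP-1 letters were in 8.97% of the last. The TATA motif TATAAA was in 5 of the 61 and in 2458 of all 21045.

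Gene loci gave the same picture with a test for each gene. Lengths under peaks were scaled between libraries on loci with a peak in every library and compared as log2(scaled bp + 500) with limma, CT26 minus 4T1, so a negative difference means more open length in the 4T1 niche. Of 16666 loci tested, 310 were higher in the 4T1 niche (1.86%) and 5 higher in the CT26 niche (0.03%) at an adjusted p under 0.05, 1.89% in either direction, and 3146 passed an unadjusted p of 0.05. In all 310 the 3 libraries of one model lay above the 3 of the other; over all loci tested that held for 13.6% with 4T1 higher and 13.9% with CT26 higher. The distal libraries entered this fit and added to its estimate of spread. Fitted on the 6 niche libraries alone, 239 loci were higher in 4T1 and 3 in CT26, and 165 of the 315 calls remained. Calls lost in that fit included Cd3e, Cd74, Gbp10, Hspa1a, Hsp90aa1, H3c14, Prox2 and Eif3f. With 51005 peaks kept in each niche library, the counts became 46 higher in 4T1 and 63 higher in CT26. Of the 276 calls that could still be tested 30 remained, all of them higher in 4T1. No CT26 niche peak was found at 39 of the 310 loci, which entered the test through the 4T1 niche libraries alone; with a peak required in all 6 niche libraries 201 were higher in 4T1. Without 4T1 niche replicate 1, 2 or 3 the number higher in 4T1 was 78, 51 or 65, without CT26 niche replicate 2 or 3 it was 111 or 99, and without CT26 niche replicate 1 it was 358.

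**Figure D3:**
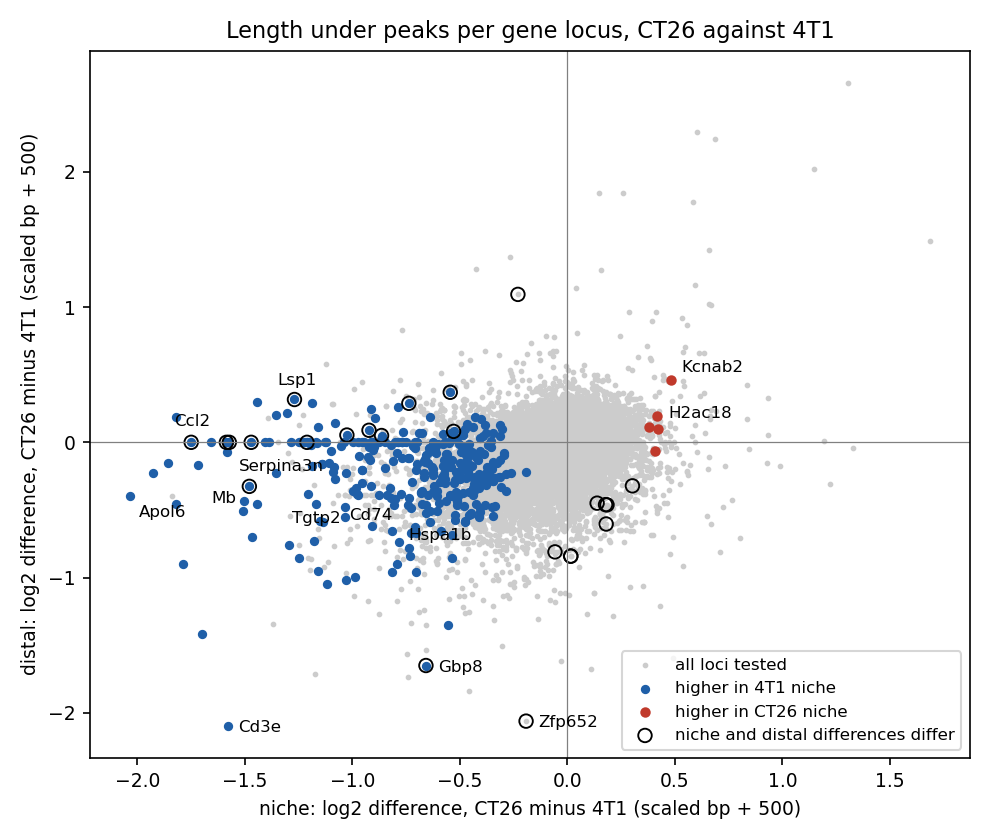
Log2 difference in length under peaks, CT26 minus 4T1, in niche (horizontal) against distal (vertical) AT2 cells for 16666 gene loci; each point is a locus, coloured points passed the niche test and rings mark the 24 loci whose niche and distal differences differ. Blue points (310) lie to the left, those on the horizontal line at 0 include loci with no distal peak, and 5 red points lie to the right; where a niche group has no peak the position depends on the 500 bp added.

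The chemokine genes Ccl2 and Ccl7 held peaks in the 4T1 niche libraries only. They lie side by side on chromosome 11 and encode ligands that draw monocytes through the receptor CCR2. The Ccl2 locus held 1710, 1333 and 1089 bp under peaks in the 4T1 niche libraries and is listed at 0 in the CT26 niche and in all 6 distal libraries. The Ccl7 locus held 877, 754 and 651 bp in 4T1 and is likewise at 0 in the other 9 libraries. The windows with 10 kb flanks overlap, so these are not independent loci. Their neighbours Ccl8, Ccl11 and Ccl12 are listed at 0 in all 12 libraries, as are Ccl3 and Ccl4. A locus at 0 in the CT26 niche entered the test only through the 4T1 libraries where it is high, so here and below such loci are given as values, with no fold and no p.

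Some loci of interferon-inducible genes were longer in the 4T1 niche. Guanylate-binding proteins (Gbp) and immunity-related GTPases (Tgtp, Irgm, Iigp) attack the vacuoles of intracellular pathogens. Tgtp2 held 938, 460 and 886 bp in CT26 and 3139, 2368 and 2727 bp in 4T1, a log2 difference of -1.21 ± 0.15 (SE; adjusted p = 0.00505). Gbp8 held 910, 807 and 819 bp in CT26 and 2117, 1659 and 1884 bp in 4T1 (-0.66 ± 0.09, adjusted p = 0.00775). Both calls remained without each niche library in turn, but both were lost with 51005 peaks per niche library (adjusted p = 0.0626 for Tgtp2 and 0.259 for Gbp8). The region that differed most at Gbp8 lay 8527 bp outside the gene, and the Gbp8 difference was 0.090 with 2 kb flanks.

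Gbp4 and Gbp10 passed as well, less firmly. Gbp4 held 2042, 1700 and 1995 bp in CT26 against 3311, 3463 and 3741 bp in 4T1 (-0.55 ± 0.11, adjusted p = 0.0392), and Gbp10 0, 881 and 0 bp against 1772, 1830 and 2721 bp (-1.70 ± 0.37, adjusted p = 0.0425). Leaving out 4T1 niche replicate 3 raised the adjusted p to 0.138 for Gbp4 and 0.148 for Gbp10, and the Gbp4 call was lost without each of the 6 libraries in turn. Of the 16 GTPases tested on a list of them, these 4 were higher in 4T1 (against 1.86% of all loci) and 15 had a negative difference, with a median of -0.36. Summed over the list without scaling, length under peaks was 33.0 to 33.2 kb in CT26 and 52.4 to 54.0 kb in 4T1. After scaling it was 31.2 to 34.7 kb against 45.8 to 47.1 kb. Under scaling by total covered length 2 passed. With 51005 peaks per niche library none of these 4 passed (0.473 for Gbp4 and 0.189 for Gbp10) and Tgtp1 did (0.0248), which had not with the full lists (-0.85 ± 0.21, adjusted p = 0.0708); 14 were negative under each. Irgm1 had the 1 positive difference, 0.06 ± 0.09. Iigp1 held 3327, 3342 and 4679 bp in the CT26 niche and 6586, 5870 and 6091 bp in the 4T1 niche and did not pass (-0.46 ± 0.17, adjusted p = 0.182), but passed in distal cells, with 772, 364 and 371 bp against 3500, 3718 and 3178 bp (-1.84 ± 0.17, adjusted p = 0.000747).

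The apolipoprotein L cluster on chromosome 15, whose members are induced by interferon in many cells, held the 2 largest fitted differences of all 310 loci. Apol6 held 422, 438 and 0 bp in CT26 and 2828, 3395 and 2748 bp in 4T1, a log2 difference of -2.03 ± 0.24 (adjusted p = 0.00403). The region that differed most lay 6851 bp outside Apol6. Apol9b followed with 311, 0 and 0 bp against 1849, 1303 and 3063 bp (-1.93 ± 0.28, adjusted p = 0.00944). Apol8 held 0, 258 and 310 bp against 2256, 3039 and 1519 bp (-1.82 ± 0.31, adjusted p = 0.0176), with the adjusted p at 0.0857 without 4T1 niche replicate 2, and its window overlaps that of Apol9b. Of 8 members of the family tested, 4 passed, against 1.86% of all loci, and all 8 differences were negative, against 8500 of 16666; windows in the cluster share peaks, and 1 of the 4, Apol10b, had no CT26 niche peak. The family was picked after its values were seen; with scaling by total covered length 3 passed and 7 were negative. The neighbouring myoglobin locus Mb, whose window overlaps that of Apol6, held 1046, 903 and 727 bp against 3935, 4377 and 3422 bp (-1.48 ± 0.12, adjusted p = 0.000485). The Apol6 and Mb calls remained with 51005 peaks per niche library, with adjusted p of 0.0438 and 0.00520, whereas Apol8 fell to a difference of -0.64 (0.637) and Apol9b could no longer be tested, so that 1 of 5 members passed. With 2 kb flanks the Apol8 and Apol9b calls were lost.

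Of 5 Ifi200 genes tested 2 passed, against 1.86% of all loci. Ifi203 held 0, 284 and 201 bp in CT26 and 1472, 1416 and 1315 bp in 4T1 (-1.39 ± 0.22, adjusted p = 0.0128), and its neighbour Ifi211, which shares peaks with it, 0, 284 and 0 bp against 1073, 1008 and 899 bp (-1.22 ± 0.23, adjusted p = 0.0275). Both calls were lost without 4T1 niche replicate 2, at adjusted p of 0.0644 and 0.112, and with 51005 peaks per niche library, at 0.0727 and 0.0609. The other Ifi200 genes, Ifi204, Aim2 and Ifi202b, differed by -0.75 ± 0.20, -0.21 ± 0.24 and -0.19 ± 0.31 and did not pass. Slfn2 held 856, 683 and 699 bp against 2422, 2703 and 2135 bp (-1.05 ± 0.21, adjusted p = 0.0343); its call was lost without each of the 6 libraries in turn, with an adjusted p of up to 0.127 without 4T1 niche replicate 2, and was kept with 51005 peaks per niche library (0.00546). A broader list of 26 interferon response genes, including the STAT, IRF, Isg and Ifit genes, had no member that passed, 13 negative and 13 positive differences, and a median of 0.01. 

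A few genes known from acute inflammation, picked after their values were seen apart from Tnfaip2, also differed. Serpina3n is listed at 0 in the CT26 niche and in all distal libraries and held 1405, 1000 and 729 bp in the 4T1 niche. Casp4 is at 0 in the same 9 libraries and held 698, 535 and 1203 bp. Timp1 held 244, 0 and 0 bp in CT26 and 857, 1192 and 1011 bp in 4T1 (-1.28 ± 0.17, adjusted p = 0.00587; 0.0533 without 4T1 niche replicate 2). Tnfaip2, a target of tumour necrosis factor, held 1270, 874 and 805 bp against 2659, 3567 and 2338 bp (-0.998 ± 0.15, adjusted p = 0.0111; 0.0539 without 4T1 niche replicate 2). Of 23 genes tested on a list of NF-kB targets and acute inflammation, Tnfaip2 was the only one that passed, against 1.86% of all loci. In that list 13 differences were negative and the median was -0.02. With 51005 peaks per niche library, the adjusted p was 0.0317 for Timp1 and 0.101 for Tnfaip2.

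Some loci of genes known from leukocytes were also longer in the 4T1 niche. Lsp1, which encodes a leukocyte actin-binding protein, held 674, 481 and 885 bp in CT26 and 2777, 2782 and 2500 bp in 4T1 (-1.27 ± 0.14, adjusted p = 0.00259; -0.69 and 0.4997 with 51005 peaks per niche library). Cd3e, a chain of the T cell receptor complex, held 636, 0 and 0 bp against 1733, 1846 and 1423 bp (-1.58 ± 0.28, adjusted p = 0.0217; 0.0874 without 4T1 niche replicate 2 and 0.490 with 51005 peaks per niche library). The region that differed most lay 6718 bp outside Cd3e. In distal cells Cd3e is at 0 in CT26 and held 1375, 1440 and 2419 bp in 4T1, so the models differed there as well. Camp is at 0 in the CT26 niche and held 319, 491 and 296 bp in the 4T1 niche. Beside these, the T cell gene Cd3d is at 0 in all 12 libraries and Ptprc is at 0 in all 4T1 niche libraries. Summed without scaling over the 15 lymphoid markers, length under peaks was 9.03 to 12.9 kb in CT26 and 13.4 to 15.7 kb in 4T1. Over the 11 neutrophil markers it was 5.57 to 6.84 kb against 8.91 to 10.7 kb, and over the 15 macrophage markers 17.6 to 22.5 kb against 21.8 to 24.6 kb. After scaling the sums were 9.23 to 11.5 against 12.04 to 13.4 kb for lymphoid, 5.84 to 7.14 against 7.63 to 8.92 kb for neutrophil and 18.5 to 21.1 against 19.2 to 21.0 kb for macrophage markers, the last overlapping. The part of other cells in these results was not tested.

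Cd74, which encodes the invariant chain that guides MHC class II and is strongly expressed by AT2 cells, held 3924, 2326 and 3203 bp in CT26 and 6844, 6492 and 5654 bp in 4T1 (-0.73 ± 0.15, adjusted p = 0.0355). The call was lost without 5 of the 6 libraries, most without 4T1 niche replicate 1 (adjusted p = 0.124), and with 51005 peaks per niche library (0.284). It was the only 1 of 12 MHC class II pathway loci that passed, against 1.86% of all loci. Of the 12 differences 11 were negative, against 8500 of 16666 over all loci, with a median of -0.15. H2-Oa had the largest difference of the list, -1.17 ± 0.36, and did not pass (adjusted p = 0.118), and the class II genes H2-Aa and H2-Ab1 differed by -0.18 ± 0.08 and -0.13 ± 0.17.

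The remaining large differences did not share a function. Apod, a secreted lipocalin that carries lipids, held 201, 0 and 0 bp in CT26 and 1479, 1352 and 1170 bp in 4T1 (-1.57 ± 0.15, adjusted p = 0.00150, and 0.00689 with 51005 peaks per niche library). The region that differed most lay 4772 bp outside Apod, and the call was lost with 2 kb flanks. Sh3tc2, known from Schwann cells, held 255, 585 and 196 bp against 4266, 1861 and 2978 bp (-1.86 ± 0.27, adjusted p = 0.00893). The region that differed most lay 7998 bp outside Sh3tc2. With 51005 peaks per niche library the Sh3tc2 difference was -0.94 (adjusted p = 0.344). Ecm1, an extracellular matrix protein gene, held 224, 0 and 0 bp against 2431, 1525 and 775 bp (-1.66 ± 0.24, adjusted p = 0.0101; 0.0576 without 4T1 niche replicate 2 and 0.185 with 51005 peaks), and the histamine receptor gene Hrh1 508, 0 and 430 bp against 2154, 2548 and 1662 bp (-1.58 ± 0.32, adjusted p = 0.0344; 0.130 without 4T1 niche replicate 2 and 0.455 with 51005 peaks).

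Clec3b, which encodes the plasminogen-binding protein tetranectin, Pde1a, a cyclic nucleotide phosphodiesterase gene, and Mtarc1, which encodes a mitochondrial reductase, are listed at 0 in all CT26 niche libraries. They held 696, 1834 and 1979 bp, 919, 1209 and 1966 bp, and 1400, 1510 and 683 bp in the 4T1 niche. The keratin gene Krt17 is also at 0 in CT26 and held 420, 245 and 579 bp in 4T1.

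In the Hoxa cluster, which encodes the homeobox factors that give cells their position along the body axis, 4 of 11 genes passed as higher in 4T1, against 1.86% of all loci, and 9 differences were negative; neighbouring windows overlap. Hoxa5, the member with a known role in lung development, held 371, 415 and 508 bp in CT26 and 1786, 3007 and 2810 bp in 4T1 (-1.51 ± 0.29, adjusted p = 0.0298), and Hoxa3 690, 638 and 985 bp against 3149, 6231 and 4883 bp (-1.82 ± 0.30, adjusted p = 0.0160). Without 4T1 niche replicate 2 the adjusted p was 0.118 for Hoxa5 and 0.0753 for Hoxa3, and with 51005 peaks per niche library no Hoxa gene was higher in 4T1 and 1, Hoxa13, was higher in CT26.

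The 3 heat shock genes Hspa1a, Hspa1b and Hspa1l passed as higher in 4T1 in both niche and distal cells. Hspa1b and Hspa1a encode the stress-inducible HSP70 chaperones and, with Hspa1l, lie next to each other on chromosome 17, so their windows overlap. Hspa1b held 2627, 2626 and 2512 bp in the CT26 niche and 4365, 5264 and 5027 bp in the 4T1 niche (-0.61 ± 0.08, adjusted p = 0.00576; 0.155 with 51005 peaks per niche library), and 2342, 2146 and 2428 bp against 3980, 4667 and 4052 bp in distal cells (-0.51, adjusted p = 0.0118). Hspa1a differed by -0.41 ± 0.07 in the niche (adjusted p = 0.0231; 0.0895 without 4T1 niche replicate 3). The HSP90 gene Hsp90aa1 differed by -0.57 ± 0.12 (adjusted p = 0.0420; 0.163 without 4T1 niche replicate 2). Dnaja1, a J-domain cochaperone gene, held 1380, 1297 and 1251 bp against 3934, 4070 and 4075 bp (-1.14 ± 0.15, adjusted p = 0.00676), but the difference was 0.11 when peaks had a −log10 q of at least 5, and -0.39 with an adjusted p of 0.690 with 51005 peaks per niche library. In distal cells Hsp90aa1 and Dnaja1 differed by -0.16 and -0.59 and did not pass (adjusted p = 0.476 and 0.0716). Of 73 Hsp and Dnaj loci tested, these and Hspa1l were the 5 that passed in the niche, against 1.86% of all loci. The median of the 73 was -0.06.

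**Figure D4:**
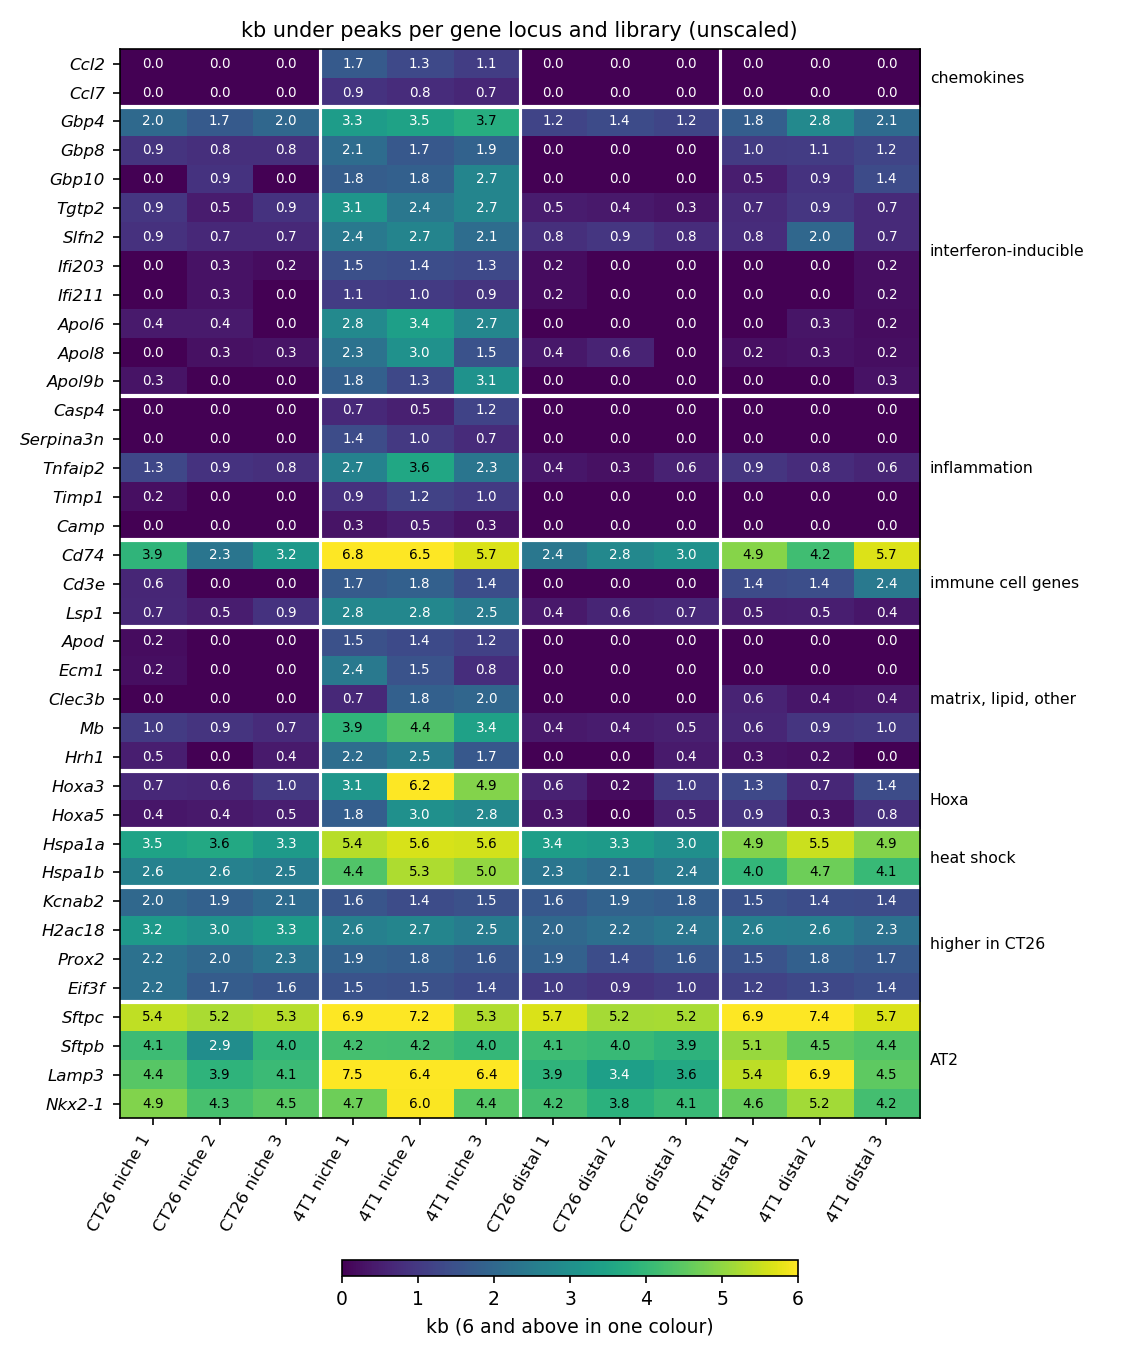
Length under peaks in kb, unscaled, for named loci (rows) in each of the 12 libraries (columns), with the value in each cell and colour from 0 to 6 kb. In the 4T1 niche columns Ccl2 reads 1.1 to 1.7 kb where the other 9 libraries read 0, whereas the AT2 gene Sftpb reads 2.9 to 4.2 kb in all 6 niche libraries.

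A further 5 loci were higher in the CT26 niche, and their differences were small. Kcnab2, which encodes a potassium channel subunit, held 2034, 1870 and 2097 bp in CT26 and 1588, 1405 and 1499 bp in 4T1, a log2 difference of 0.48 ± 0.07 (adjusted p = 0.0112; 0.0594 without 4T1 niche replicate 2). It was also higher in CT26 distal cells (0.46, adjusted p = 0.0136), and its window takes in the region in Nphp4 with the CT26 pattern in niche and distal cells. The histone genes H2ac18 and H3c14 share a region and held 3235, 3032 and 3268 bp against 2616, 2722 and 2511 bp (0.42 ± 0.07, adjusted p = 0.0129) and 3335, 3130 and 3370 bp against 2753, 2948 and 2699 bp (0.38 ± 0.07, adjusted p = 0.0215). The differences of Prox2, a homeobox gene, and Eif3f, a translation initiation factor gene, were 0.42 ± 0.08 and 0.41 ± 0.09 (adjusted p = 0.0344 and 0.0385). Without 4T1 niche replicate 3 the adjusted p was 0.0600 for H2ac18, 0.118 for Prox2 and 0.127 for Eif3f, and without 4T1 niche replicate 1 it was 0.0846 for H3c14.

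The differences in the niche were only partly found in distal AT2 cells. Of the 310 loci higher in the 4T1 niche, 230 (74.2%) also had a negative distal difference, against 51.7% of all loci tested. In the same direction 54 (17.4%) passed the distal test, against 2.58% of all loci. The niche and distal tests come from the same fit and share the spread of each locus. A locus with a small spread passes both more easily, so the share of 17.4% is not independent support. The median difference of the 310 was -0.65 in the niche, where they were chosen, and -0.20 in distal cells. No distal peak at all was found at 34 of them. Distal libraries of the 2 models gave 430 loci higher in 4T1 (2.58%) and 33 higher in CT26 (0.198%). Fitted without the niche libraries, they gave 63 and 7.

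Whether the difference between models itself differed between niche and distal cells was tested as an interaction, which 24 loci passed; 1536 passed an unadjusted p of 0.05. In 14 (0.084%) the difference was more towards 4T1 in the niche, and 13 of these were among the 310. They included Lsp1, which held 412, 612 and 685 bp in CT26 distal and 490, 506 and 365 bp in 4T1 distal libraries (interaction -1.59 ± 0.19, adjusted p = 0.0195). Zfp469, a zinc finger gene of collagen regulation, held 4604, 3565 and 3501 bp in the CT26 niche and 9202, 8554 and 8183 bp in the 4T1 niche, but 3489, 2812 and 3164 against 4176, 3506 and 3452 bp in distal cells (adjusted p = 0.0310). Apod and Mb passed at 0.0310 and 0.0337. Apod had no distal peak in any library, so its interaction (-1.57) repeats its niche difference.

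In the other 10 loci (0.06%) the models differed more in distal cells. Zfp652, a zinc finger repressor gene, held 1320, 1735 and 1683 bp in the CT26 niche and 2286, 2455 and 1816 bp in the 4T1 niche. In distal cells it is at 0 in CT26 and held 1242, 1958 and 1818 bp in 4T1 (adjusted p = 0.0164). Gbp8 is at 0 in the CT26 distal libraries and held 1046, 1064 and 1228 bp in the 4T1 distal libraries (adjusted p = 0.0310), so in CT26 it had peaks in the niche and none in distal cells. Without any 1 of the 3 4T1 niche libraries, or without 4T1 distal replicate 3, no locus passed the interaction in either direction.

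Over 32 gene lists with 456 distinct genes tested, 11 genes passed and all 11 were higher in 4T1; over all loci 315 of 16666 passed (1.89%) and 310 of these were higher in 4T1, so the share among listed genes was near that of all loci. Of the 11, 4 (Ccl2, Ccl7, Camp and Krt17) had no CT26 niche peak. Negative differences were also frequent for TGF-beta and epithelial-mesenchymal transition (17 of 21, median -0.19) and for integrins and laminins (16 of 19, median -0.18). Summed without scaling, the former list held 62.7 to 73.2 kb in CT26 and 88.7 to 93.3 kb in 4T1. No member of either passed, and with 51005 peaks per niche library 13 of 21 and 12 of 19 were negative and 1 of the former passed as higher in CT26. With no scaling 9 of 21 and 7 of 19 passed as higher in 4T1. Negative shares above that of the TGF-beta list were also found for the MHC class II (11 of 12), fibroblast (9 of 10) and surfactant lists (16 of 19). The same held for the neutrophil (6 of 7, median -0.34) and basal cell lists (5 of 6, median -0.33). The AP-1 and related factors (16 tested, median -0.02), the AT1 genes (16, -0.08), the genes of the transitional alveolar and p53 state (20, -0.09) and the cell cycle genes (16, 0.07) had no member that passed. Over all loci the median was 0.00 with 8500 of 16666 negative; scaling by total covered length moved that median to 0.09, and no scaling to -0.18.

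**Figure D5:**
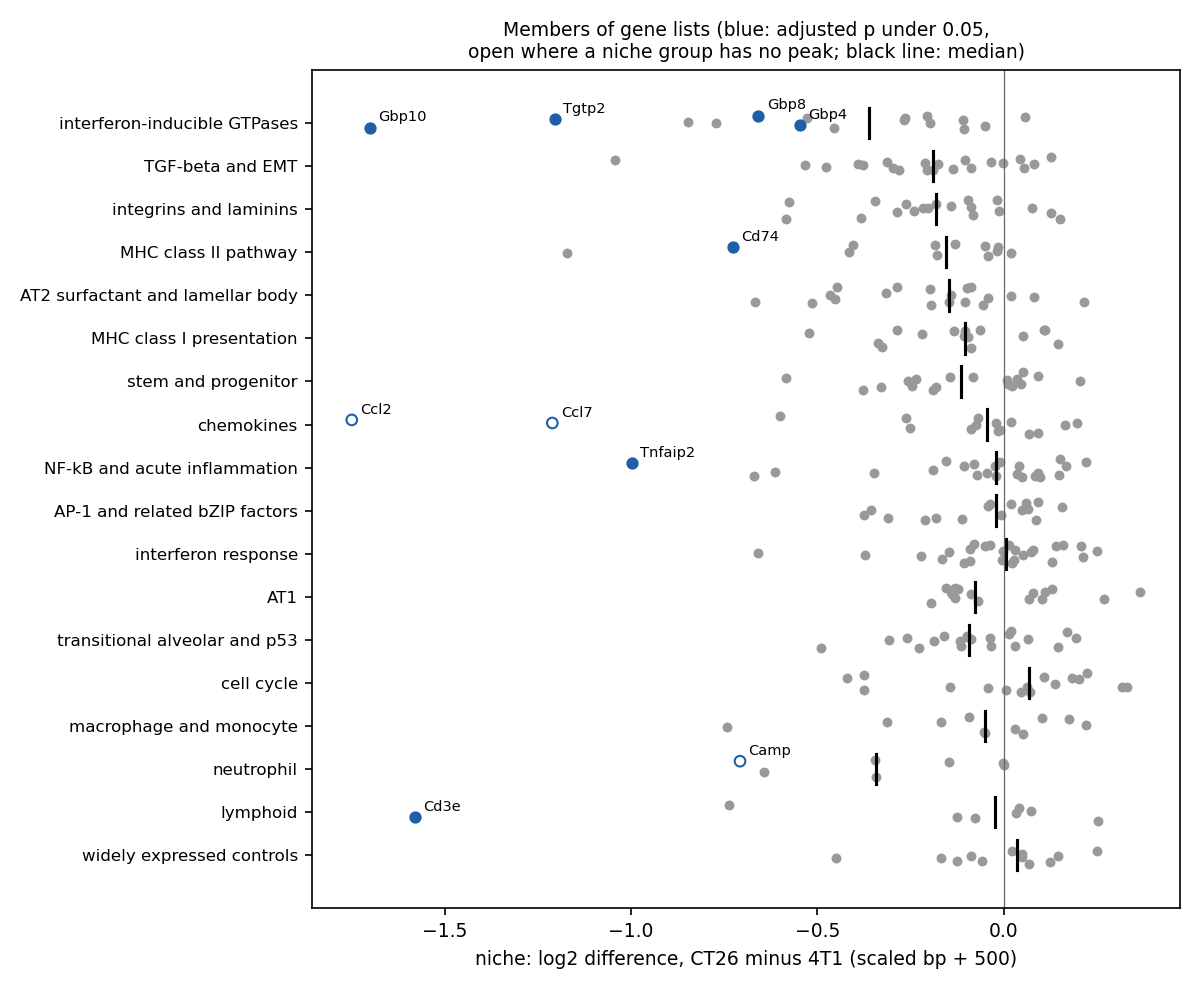
Log2 difference in length under peaks, CT26 niche minus 4T1 niche, for the tested members of 18 gene lists; each point is a gene, blue where its adjusted p is under 0.05 and open where a niche group has no peak, and black lines are list medians. The blue points all lie to the left of 0, and the lowest median, -0.36, is that of the interferon-inducible GTPases; open points entered the test through the 4T1 niche libraries alone.

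None of the AT2 genes passed. Sftpc and Sftpb, which encode surfactant proteins, differed by -0.04 ± 0.10 and 0.02 ± 0.09, and Nkx2-1, the lung lineage factor gene, by 0.07 ± 0.09 (adjusted p = 0.850, 0.931 and 0.700). Lamp3, a lamellar body gene, held 4437, 3904 and 4100 bp in CT26 and 7548, 6394 and 6430 bp in 4T1 and did not pass (-0.45 ± 0.11, adjusted p = 0.0603). Lpcat1, which encodes an enzyme of surfactant lipid synthesis, held 6193, 3213 and 7007 bp against 9873, 10174 and 9793 bp (-0.67 ± 0.22, adjusted p = 0.148), and the lysozyme gene Lyz2 3568, 2007 and 2665 bp against 5635, 3526 and 5145 bp (-0.51 ± 0.29, adjusted p = 0.365). Of 19 surfactant and lamellar body genes none passed and 16 differences were negative, with a median of -0.15; under scaling by total covered length 11 were negative and 1 passed as higher in CT26, and with no scaling 8 passed as higher in 4T1. The AT1 genes Hopx, Pdpn and Ager and the transitional marker Krt8 differed by -0.19 ± 0.17, -0.13 ± 0.16, 0.27 ± 0.13 and -0.31 ± 0.16, and none passed. Pecam1 differed by -0.75 ± 0.23 (adjusted p = 0.117).

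Where all 6 niche libraries held a peak, its width was compared. Of 42260 such regions, 68 were wider in 4T1 (0.161%) and 2 wider in CT26 (0.00473%), with 3651 at an unadjusted p of 0.05. The largest differences were a region in Ncoa1, a nuclear receptor coactivator gene (chr12:4392218-4393904), with 274, 317 and 256 bp of peak in CT26 and 1587, 1628 and 1551 bp in 4T1 (-2.38 ± 0.13, adjusted p = 0.0191), and regions in Yes1, Sipa1l2 and Snx18. The 2 wider in CT26 lay in Pde7b (chr10:20505304-20506845), with 1540, 1438 and 1473 bp against 738, 764 and 630 bp (1.18 ± 0.08, adjusted p = 0.0204), and in Gab1, a docking protein of receptor tyrosine kinases (chr8:80852540-80854495), with 1925, 1932 and 1901 bp against 1298, 1298 and 1295 bp (0.68 ± 0.06, adjusted p = 0.0304). Without any 1 of the 3 4T1 niche libraries no region passed in either direction, and without CT26 niche replicate 1 there were 180 wider in 4T1 and 3 wider in CT26.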

How the data were processed

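ATAC-seq peak lists of 12 libraries were used, 3 in each of 4 groups taken from the labels. Per the submitters' processing notes, MACS2, bedtools and GRCm38 were used; no source used here gives their versions or an aligner. Each deposited broad peak has start and end positions, a fold enrichment ratio over background as the authors' caller gave it, and −log10 p and −log10 q values, with a deposited −log10 q of at least 1. The files hold no counts, so depth is unknown, no count test was possible, and a missing peak is not evidence of closed chromatin.

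Only the 19 autosomes and X entered. The 6 niche lists were merged where they overlapped by at least 1 bp. For 21631 genes, bp under peaks within the gene body and 10 kb flanks were summed, loci with a peak in at least 3 niche libraries were tested, and values were scaled by the median ratio over loci with a peak in all 12 libraries. The log2(scaled bp + 500) values were fitted with limma 3.58.1 (R 4.3.3), with 4 group means, a mean-variance trend and Benjamini-Hochberg adjustment over all loci. The fold on this scale understates changes of low loci. Peak widths in regions held by all 6 niche libraries were fitted alike. Single values were compared by exact permutation. Scripts were tested on simulated data. Tables were made with Python 3.11.15, pandas 2.3.3, numpy 2.4.6 and matplotlib 3.10.9. P-values measure the spread between libraries of pooled lungs.

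The text names, by rule, the 12 loci with the largest difference per direction among those that passed with groups that do not overlap (unnamed gene models left out), 8 interaction loci, the top 5 regions of each kind by percentile of −log10 p, and members of 32 gene lists that passed; families and further loci were picked after their values were seen. The members and lists were chosen with earlier results of these data known. Gene starts on chromosome 18 were not used here. Promoter sequences are from RefSeq (GRCm38.p6). Alternatives were another q threshold, list length, scaling, added length, flank, filter, trend, replicate block and left-out libraries.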

Additional observations from a re-analysis of the deposited data

Results flagged for a closer look

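At 13 loci the difference between CT26 and 4T1 differed between niche and distal AT2 cells by the limma interaction test with Benjamini-Hochberg adjustment; these are named among the 24 loci of 16666 that passed. In 10 of the 13 the niche difference was more towards 4T1. The adjusted p was 0.0164 for Ccl2, 0.0195 for Lsp1 and 1700013G24Rik, 0.0310 for Zfp469 and Apod, 0.0337 for Mb, and 0.0401 for Mtarc1, Ccl7, Serpina3n and Cdc42bpg. The locus of 1700013G24Rik held 786, 858 and 854 bp in the CT26 niche and 2133, 2381 and 2551 bp in the 4T1 niche, against 826, 741 and 728 bp and 906, 846 and 796 bp in distal cells. Cdc42bpg, a kinase gene, held 3050, 2958 and 2999 bp against 5242, 5696 and 4956 bp in the niche, and 2921, 2662 and 2663 bp against 2975, 3228 and 3253 bp in distal cells. Mtarc1, Ccl2, Ccl7, Serpina3n and Apod had no distal peak in any library, and Mtarc1, Ccl2, Ccl7 and Serpina3n, with no CT26 niche peak either, entered the test through the 4T1 niche libraries alone, so their p supports nothing.

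At Zfp652 (adjusted p = 0.0164), LOC115486128 and Gbp8 (0.0310 each) the models differed more in distal cells. LOC115486128 held 2984, 2840 and 2699 bp in the CT26 niche and 3236, 3580 and 3561 bp in the 4T1 niche, against 1326, 1381 and 1329 bp and 3596, 3191 and 3071 bp in distal cells.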

How the results depend on the processing

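Counts are given as higher in CT26, then higher in 4T1. For niche loci (5 and 310) they were 14 in CT26 at a −log10 q of at least 2, 10 in CT26 at 5, 26 and 35 with 42067 peaks in each of the 12 libraries, 63 and 46 with 51005 in each niche library, 31 and 107 with scaling by total covered length, 2468 in 4T1 with no scaling, 9 in CT26 with 2000 bp added and likewise without the variance trend, 201 in 4T1 with a peak in all 6 niche libraries, 10 and 37 in CT26 with 2 and 50 kb flanks, and 3 in CT26 when only niche libraries were fitted. For regions in one model they were 458 and 597 with 42067 peaks, 692 and 932 with 51005, and 10 in CT26 at a −log10 q of at least 5. Widths (2 and 68) gave 1 and 17 with total scaling and 1 and 39 without the trend.

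The interaction (10 more to CT26, 14 more to 4T1 in the niche) gave 26 and 22 at a −log10 q of at least 2, 74 and 36 at 5, 6 and 4 with 42067 peaks, 3 and 7 with total scaling, 17 and 9 with 100 bp added, 23 more to 4T1 with 2000 bp, 9 more to 4T1 with a peak in all 6 niche libraries, 1 and 9 with 50 kb flanks, 16 and 42 without the trend, and 1 and 4 with a peak in all 12. Distal loci (33 and 430) gave 58 in CT26 at a −log10 q of at least 2, 363 and 1148 at 5, 19 and 54 with 42067 peaks, 565 and 274 with total scaling, 12 and 4866 with no scaling, 81 in CT26 with 50 kb flanks, 20 in CT26 with a peak in all 12, and 7 and 63 from distal libraries alone. The lists of 51005 peaks and the filter on all 12 libraries were added after seeing the data. Lists cut to equal numbers keep weaker peaks in the CT26 niche than in the 4T1 niche libraries. Where list length, filter or libraries fitted were not themselves what changed, the cause was not tested.

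Leaving out one library gave 1 to 18 niche loci higher in CT26 and 51 to 358 higher in 4T1, 0 to 12 and 0 to 10 for the interaction, 4 to 34 and 103 to 387 for distal loci, 0 to 7 and 0 to 180 for widths, and 99 to 180 CT26 and 3940 to 5273 4T1 regions, where 2 libraries suffice for the shortened group. The mean difference ran from -14155.2 to -11893.2 peaks and from -12.619 to -9.39063 Mb.

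Same-numbered niche libraries correlated at 0.015 to 0.067 and others at -0.041 to 0.022, so the numbers were not taken to pair the libraries. With a replicate block there were 5 and 237 niche loci, 2 and 1 for the interaction, 19 distal loci higher in CT26, and 0 and 0 widths.

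Of 963 values of 50 named loci under alternatives, 952 kept their direction, of which 657 kept the call and 295 lost it. The 11 that turned were Eif3f (-0.23 at a −log10 q of at least 5, -0.17 with 42067 peaks, -0.11 with 2 kb flanks), 1700013G24Rik (0.11 and 0.040 under the first 2 of these), Dnaja1 (0.11 and 0.039 likewise), Gbp8 and Hspa1l (0.090 and 0.12 with 2 kb flanks), and Krt17 and Msln (0.058 and 0.017 with 50 kb flanks). Of the 50, 20 kept their call without each library that could be left out, and 9 with 51005 peaks per niche library. Calls lost with 2 kb flanks included those of Apod, Apol8, Apol9b, Ifi203, Cdc42bpg, Kcnab2, H2ac18, H3c14, Prox2 and Gbp4. Depth is unknown, so what it limits cannot be given.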

Other observations

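Replication-dependent histone genes, which are clustered and supply histones during DNA synthesis, had positive differences at all 57 loci tested, with a median of 0.20, and 2 passed as higher in CT26 (H2ac18 and H3c14). Over all loci tested 8500 of 16666 differences were negative and 0.03% passed as higher in CT26. In distal cells 43 of the 57 were positive, with a median of 0.12. With no scaling 35 of 57 were positive, and with 51005 peaks in each niche library 54. Many of these loci share peaks, and the family was picked after its values were seen.

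With 51005 peaks in each niche library, 63 loci were higher in CT26, and none of them passed with the full lists. That cut kept peaks down to a lower −log10 q in CT26 than in 4T1, so a 4T1 peak absent from it may be in the full list. Among them were 16 genes of developmental transcription factors, picked after their values were seen. At 14 of the 16, and at 37 of the 63, no 4T1 niche peak was among those kept. Foxl2, a factor of the ovary, kept 1852, 1518 and 2097 bp in CT26 and none in 4T1, while the full lists held 2025, 1960 and 1375 bp in 4T1. Lbx1, a factor of muscle precursors, kept 2623, 1804 and 1663 bp in CT26 and none in 4T1, where the full lists held 2802, 1494 and 519 bp. The full-list differences of the 16 ran from -0.26 to 0.65.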
